A study of Mus musculus with 12 samples.

Results

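The 10 enzymes described here make serine from a glycolytic intermediate or pass the carbon of serine and glycine to folate, in the cytosol and in mitochondria. They are Phgdh, Psat1, Psph, Shmt1, Shmt2, Mthfd1, Mthfd1l, Mthfd2, Aldh1l2 and Gldc. They were found by symbol among the 17007 symbols of the deposited expression values, and all 10 were among the 14397 genes with enough signal to be tested. The list was chosen by pathway with earlier results of the same libraries in view, in which the lower levels of Psph and Gldc with MLN0128 had already been seen. The differences between groups are therefore given for these enzymes as descriptions, with standard errors and intervals and without p-values, and nothing is read from how many of them were called.

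RNA was sequenced from 12 tissue samples in 4 groups of 3. Normal livers came from wild-type C57BL/6 mice that carried no tumor. The other 3 groups were liver tumors of the genotype c-MYC/MCL1/RictorKOTsc2KO, from mice given vehicle, MLN0128 or everolimus. All tumors expressed the c-MYC and MCL1 oncogenes from plasmids that hydrodynamic tail vein injection brings into hepatocytes, in mice with floxed Rictor and Tsc2 on the C57BL/6J background, and both genes were deleted by a Cre plasmid with a CMV promoter, so that vehicle-treated tumors carried the same deletions as drug-treated ones. Only cells that took up the plasmids carry these changes, so other liver cells in a tumor keep both genes. MLN0128 inhibits the mTOR kinase in both of its complexes, mTORC1 and mTORC2. Everolimus, an analog of rapamycin, acts on mTORC1. Each drug was given by gavage at 1 mg/kg per day, 6 days a week for 3 weeks from day 6 after injection, and tumors were taken at 3.7 weeks. The labels and the methods give this schedule, whereas the account of the sequencing experiment itself speaks of days of treatment, so the length of treatment behind each difference with a drug is uncertain. The labels give no ages.

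Reads recovered from the FPKM and the exon lengths numbered 17162884 to 25177846 per library, with a median of 18651246. Levels are in FPKM, the fragments of a gene divided by its length in kilobases and by the size of its library, so that genes can be compared with each other. Tumor tissue was bulk tissue, and fewer cells of a type and less RNA per cell cannot be told apart. All 8 hepatocyte markers, among them Alb and Cyp2e1, were detected in every group. Their summed level was 82380 to 102200 FPKM in normal liver, 3879 to 6030 FPKM with vehicle, 1835 to 4076 FPKM with MLN0128 and 3131 to 7946 FPKM with everolimus. In normal liver that sum was mostly Alb, with a mean of 66600 FPKM. It holds opposite changes, as Cyp2e1 was at 1.56 to 28.6 FPKM with vehicle and 44.3 to 87.4 FPKM with MLN0128. By the moderated test described below, 2 of the 8 were higher and 3 lower with MLN0128 than with vehicle. Of all tested genes 14.9% and 17.1% were. Tsc2 was at 4.50 to 5.32 FPKM in normal livers and at 2.01 to 3.96 FPKM in the 9 tumors, and Rictor was at 1.65 to 2.57 FPKM and 1.05 to 2.21 FPKM, with overlap. A value over the whole gene does not show whether the floxed exons were read. MLN0128 replicates 1 and 2 held Xist RNA at 191 and 155 FPKM, against at most 0.0699 FPKM in the other 10 libraries, so that each comparison with MLN0128 also sets libraries with Xist against libraries without it. Xist RNA marks female mice, and the paper states that both sexes were used. The drug and the sex of the mice therefore cannot be fully told apart in these comparisons.

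Serine is made from 3-phosphoglycerate by an oxidation (PHGDH), a transamination (PSAT1) and a dephosphorylation (PSPH). Serine hydroxymethyltransferase then splits serine into glycine and a carbon unit carried by tetrahydrofolate, by SHMT1 in the cytosol and SHMT2 in mitochondria, and the glycine cleavage system, with glycine decarboxylase (GLDC) as its first enzyme, takes a further unit from glycine. In mitochondria MTHFD2 oxidizes the folate-bound unit, MTHFD1L releases it as formate and ALDH1L2 oxidizes it to carbon dioxide, whereas MTHFD1 joins formate to folate in the cytosol. The units are used for purines, thymidylate and methylation. The transcription factor ATF4 is known to drive several of these genes, and adult liver is known as a tissue that uses glycine and serine from the blood.

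The stretches of DNA just before the RefSeq starts of 5 of the genes are shown, because Phgdh, Psat1, Shmt2, Mthfd2 and Gldc were each lower in every MLN0128 library than in every vehicle library and their windows begin outside annotated exons. Psph was lower as well, but an annotated exon covers the beginning of its window. The share of all tested genes that were lower in this way is not given here, so this rule served only to choose the stretches. The stretches are cut from the RefSeq promoter windows of GRCm38.p6, which run from 250 bases before to 50 bases after a start, and stop at that start or, where it comes earlier, before the first base that any exon of the GENCODE M21 annotation covers. In the order printed they lie at chr3:98339991-98340219, chr19:15925060-15925309, chr10:127522445-127522694, chr6:83317607-83317854 and chr19:30175442-30175691, all on the minus strand, and are written 5′ to 3′ in the direction of transcription. Those of Phgdh, Shmt2 and Gldc precede the whole annotated gene, whereas those of Psat1 and Mthfd2 lie between exons inside the M21 gene, which also holds exons further upstream. Capitals mark CCAAT or its reverse complement ATTGG, a motif known to be bound by the factor NF-Y.
Phgdh: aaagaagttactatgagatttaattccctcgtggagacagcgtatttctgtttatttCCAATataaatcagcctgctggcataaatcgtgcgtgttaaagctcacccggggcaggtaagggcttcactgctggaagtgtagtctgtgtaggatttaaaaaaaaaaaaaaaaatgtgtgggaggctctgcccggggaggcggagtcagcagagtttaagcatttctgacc
Psat1: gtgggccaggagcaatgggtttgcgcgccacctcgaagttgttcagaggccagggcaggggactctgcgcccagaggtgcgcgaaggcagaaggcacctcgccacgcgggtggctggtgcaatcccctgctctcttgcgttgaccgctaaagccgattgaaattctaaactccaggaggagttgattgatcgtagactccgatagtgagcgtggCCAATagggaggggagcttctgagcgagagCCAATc
Shmt2: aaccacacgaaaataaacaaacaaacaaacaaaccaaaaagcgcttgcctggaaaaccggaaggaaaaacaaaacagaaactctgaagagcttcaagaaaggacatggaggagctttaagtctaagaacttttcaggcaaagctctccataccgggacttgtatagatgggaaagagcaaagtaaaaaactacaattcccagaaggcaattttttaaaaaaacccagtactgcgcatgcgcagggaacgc
Mthfd2: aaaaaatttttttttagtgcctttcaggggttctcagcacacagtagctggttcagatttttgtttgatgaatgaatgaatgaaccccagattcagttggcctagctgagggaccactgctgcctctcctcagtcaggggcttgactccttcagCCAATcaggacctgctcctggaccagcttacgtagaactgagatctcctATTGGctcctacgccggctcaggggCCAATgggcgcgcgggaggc
Gldc: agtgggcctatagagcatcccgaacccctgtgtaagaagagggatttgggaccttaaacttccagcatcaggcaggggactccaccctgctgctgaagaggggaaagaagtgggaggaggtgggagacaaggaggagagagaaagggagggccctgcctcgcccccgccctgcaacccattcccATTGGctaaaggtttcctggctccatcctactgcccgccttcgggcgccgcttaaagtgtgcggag
Windows were found for 9 of the 10 enzymes, with a second window for Psat1. CACGTG, the E-box that MYC can bind, was in the windows of 0 of the 9 and in 7.15% of the 32851 windows of the genome. TGATGNAA, the core that ATF4 dimers bind, was also in 0 of the 9 on either strand and in 3.97% of all windows. CCAAT, chosen after the sequences were read, was on either strand in the windows of 7 of the 9 and in 37.4% of all windows. Shmt2 and Mthfd1l held none, Psat1 and Mthfd2 held 3 each, Phgdh held 2 and Gldc held 1, of which 1 each in Psat1 and Phgdh lies past the stretch printed. A match or its absence describes the letters of these windows only.

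Most of the pathway was far higher in vehicle-treated tumors than in normal liver, and its members differed in their levels with MLN0128. Phgdh, Psat1, Psph, Mthfd1l, Mthfd2, Aldh1l2 and Gldc rose in tumors, Shmt1 fell, and Shmt2 and Mthfd1 differed by less than the called size. With MLN0128, Mthfd2, Psph and Gldc fell, while the mean of Phgdh was 0.689 of that with vehicle, without a call, and the means of Shmt1 and Mthfd1 were above those with vehicle. With everolimus no enzyme was called lower. A gene was called when its difference exceeded a fold change of 1.5 in limma's treat test at a Benjamini-Hochberg adjusted p under 0.05, and limma's moderated test, which asks for any difference, is given beside it.

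In vehicle-treated tumors against normal liver, 7 of the 10 enzymes were called higher, where 15.9% of the 14397 tested genes were, and 1 was called lower, where 16.9% were. By the moderated test the counts were 8 and 1, beside 36% and 33% of all genes. Both counts of higher enzymes include Aldh1l2, which was at most 0.0363 FPKM in normal livers. It passed the filter on low values through the tumors alone, so its call is not independent of that filter. In MLN0128 against vehicle, 0 enzymes were called higher and 3 lower, beside 0.479% and 1.65% of all genes. The moderated test gave 1 and 5, beside 14.9% and 17.1%. In everolimus against vehicle, 0 were called in either direction, beside 0.0347% and 0.57% of all genes, and the moderated test gave 1 higher and 0 lower, beside 3.78% and 6.05%. In MLN0128 against everolimus, 0 were called in either direction, beside 0.00695% and 0.0347%, and the moderated test gave 0 higher and 4 lower, beside 3.99% and 5.54%. The comparisons share the vehicle libraries, so they do not bear on the enzymes independently.

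The counts and differences against normal liver, also those of other genes named below, rest on the scaling between libraries that the deposited FPKM carry. With plain library totals, or with every library brought to the same FPKM sum, the median of all genes in tumors against normal liver moved from 0.058 to 0.62 and 0.80 on the log2 scale, and 9 enzymes were called higher and 0 lower under both. Shmt1 was then at -0.23 and 0.03 on the log2 scale, and Shmt2 and Mthfd1 were called higher. With both MLN0128 libraries that held Xist left out, 0 enzymes were called lower against vehicle, with Mthfd2 at -2.43, Psph at -2.16 and Gldc at -1.43 on the log2 scale. That fit leaves 1 MLN0128 library, which is assumed to vary like the other groups.

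**Figure D1:**
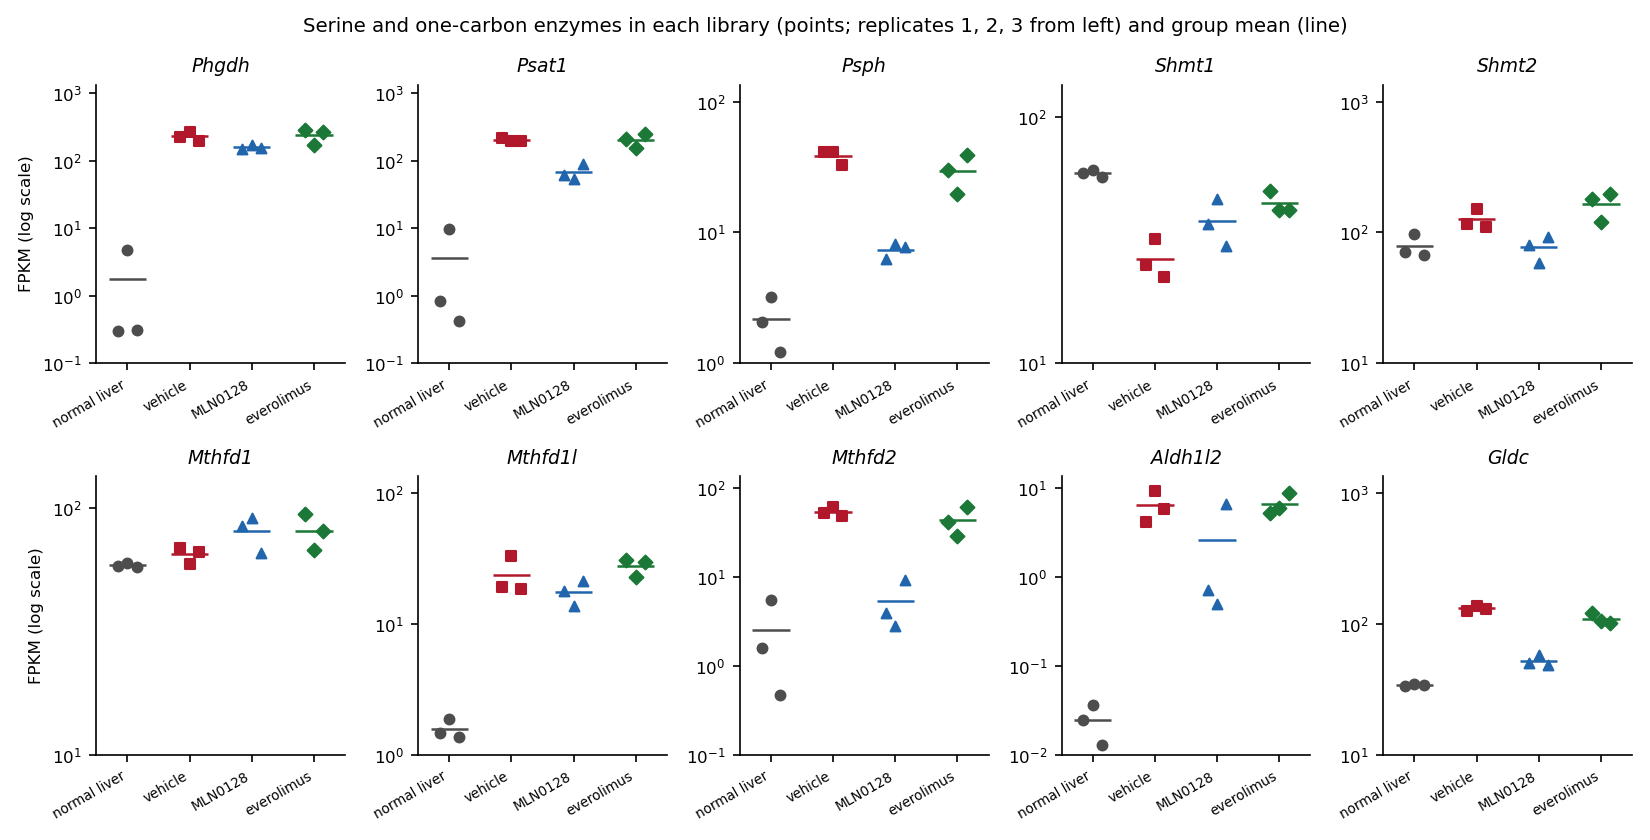
FPKM of the 10 enzymes on log axes, 1 panel a gene, with 1 point for each of the 12 libraries and a line at the mean of the 3 libraries of a group. Phgdh, Psat1, Psph, Mthfd1l, Mthfd2 and Aldh1l2 sit at least a decade lower in most normal livers than in vehicle-treated tumors, and in Mthfd2 and Psph the 3 MLN0128 libraries sit between normal liver and the other tumors or beside normal liver.

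Phgdh encodes the first enzyme of serine synthesis (ENSMUSG00000053398, GRCm38 chr3:98313170-98339990, minus strand). It was at 0.298, 4.78 and 0.308 FPKM in normal livers and reached 226, 269 and 197 FPKM in the vehicle-treated tumors. The libraries do not overlap, and Phgdh had the highest mean level of the 10 enzymes in each tumor group. The log2 fold change of tumors against normal liver was 6.75 ± 0.46 (SE), on the scale of log2(FPKM + 1) on which all fold changes of the fits are given. In drug-treated tumors it was at 147, 174 and 156 FPKM with MLN0128 and at 284, 173 and 266 FPKM with everolimus. All 3 MLN0128 libraries were lower than all vehicle libraries, but the difference of -0.53 had a 95% interval of -1.53 to 0.48 and was not called. Between everolimus and vehicle the interval ran from -0.96 to 1.05. The error behind both intervals is shared by all groups and includes normal liver replicate 2, at 4.78 FPKM.

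Psat1, whose product passes an amino group from glutamate to the intermediate (ENSMUSG00000024640, chr19:15904678-15947337, minus strand), was at 0.850, 9.78 and 0.428 FPKM in normal liver. It was at 218, 198 and 195 FPKM with vehicle and at 208, 157 and 249 FPKM with everolimus. Tumors exceeded normal liver by 6.06 ± 0.57 (SE). With MLN0128 it was at 61.9, 54.5 and 89.8 FPKM, all lower than any other tumor. The mean with MLN0128 was 0.337 of that with vehicle, and the log2 difference of -1.58 ± 0.57 (SE) was not called. The error of that difference is shared by all groups and includes normal liver replicate 2, at 9.78 FPKM. Without that library the SE was 0.21 and Psat1 was called lower with MLN0128, and it was called as well when only the 9 tumors were fitted, a setting chosen after seeing the data.

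Psph encodes the phosphatase that releases serine (ENSMUSG00000029446, chr5:129765558-129787449, minus strand). Its level was 2.08, 3.23 and 1.22 FPKM in normal livers and 41.0, 41.4 and 32.6 FPKM with vehicle, a rise of 3.67 ± 0.26 (SE). With MLN0128 it was 6.24, 8.12 and 7.75 FPKM, and with everolimus 29.9, 19.7 and 39.3 FPKM. The MLN0128 libraries stood apart from those of each other group. Psph fell by 2.23 ± 0.26 (SE) with MLN0128 against vehicle, a mean of 7.37 ± 0.996 FPKM against 38.3 ± 4.97 FPKM (SD, n = 3). Against everolimus the difference was -1.83, which passed the moderated test and not the 1.5-fold call. Psph shares 452 of its 4329 exon bases with Cct6a on the other strand, and whether the authors' counting used strand is not given in the sources used here.

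Along the 3 steps of serine synthesis the MLN0128 level as a share of the vehicle level was thus 0.689 for Phgdh, 0.337 for Psat1 and 0.192 for Psph, as ratios of group means. The everolimus shares were 1.04, 1.00 and 0.773, and none of these 3 differences was called.

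Shmt1, the cytosolic serine hydroxymethyltransferase (ENSMUSG00000020534, chr11:60788104-60811718, minus strand), was the sole enzyme called lower in tumors. It was at 59.2, 60.7 and 57.0 FPKM in normal livers and at 25, 32 and 22.4 FPKM with vehicle. This was a log2 change of -1.14 ± 0.17 (SE), called lower, but not called without vehicle replicate 3, when it was -1.03. With MLN0128 Shmt1 was at 36.6, 46.5 and 29.9 FPKM, and the lowest of these lay within the range of vehicle. With everolimus it was at 50.1, 41.9 and 41.9 FPKM, higher than every vehicle library, and the difference of 0.74 was the sole one of the 10 to pass the moderated test in that comparison.

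Shmt2, the mitochondrial form (ENSMUSG00000025403, chr10:127517123-127522444, minus strand), was at 71.4, 97.6 and 66.7 FPKM in normal liver, where it had the highest mean of the 10 enzymes. It was at 116, 152 and 110 FPKM with vehicle, at 80.4, 58.0 and 92.2 FPKM with MLN0128 and at 179, 121 and 196 FPKM with everolimus. The MLN0128 libraries overlapped those of normal liver and lay below all other tumors. The log2 differences were 0.68 for tumors against normal liver, -0.72 for MLN0128 against vehicle and -1.09 for MLN0128 against everolimus. Each passed the moderated test and none was called against a fold of 1.5.

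Gldc, the glycine-binding enzyme of glycine cleavage (ENSMUSG00000024827, chr19:30098447-30175429, minus strand), had the smallest standard error of the 10. It was at 33.6, 34.9 and 33.9 FPKM in normal livers and at 125, 138 and 131 FPKM with vehicle. Its level was 50.6, 58.2 and 48.1 FPKM with MLN0128 and, with everolimus, 121, 106 and 101 FPKM. The 4 groups did not overlap. Gldc rose by 1.91 ± 0.11 (SE) in tumors and fell by 1.32 ± 0.11 with MLN0128, and the MLN0128 mean was still 1.53 times that of normal liver. The everolimus libraries lay below vehicle by 0.27 on the log2 scale, which was not called by either test. Other subunits of the complex were also measured. Amt, which encodes the aminomethyltransferase, was at 0.10 in tumors and 0.10 with MLN0128 on the log2 scale, with limma adjusted p-values of 0.60 and 0.68. Gcsh, the lipoyl carrier protein, was at -0.82 and -0.87, past the moderated test (limma adjusted p = 0.000136 and 0.000732) and not called against a fold of 1.5. Dld, the dihydrolipoamide dehydrogenase that this complex shares with others, was at -0.049 in tumors and -0.89 with MLN0128 (limma adjusted p = 0.81 and 0.00278), the latter past the moderated test and not called, and is named here after its values were seen. The tumor values of these subunits rest on the deposited scaling. Plain library totals and equal FPKM sums moved the median of all genes in tumors from 0.058 to 0.62 and 0.80.

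Mthfd2, the mitochondrial dehydrogenase and cyclohydrolase (ENSMUSG00000005667, chr6:83305691-83325908, minus strand), showed the largest difference of the 10 with MLN0128. It was at 1.60, 5.41 and 0.467 FPKM in normal livers and at 51.8, 60.2 and 48.4 FPKM with vehicle, a rise of 4.22 ± 0.49 (SE). With MLN0128 it was at 3.95, 2.81 and 9.10 FPKM, and with everolimus at 41.3, 28.4 and 60.6 FPKM. The ranges of MLN0128 and normal liver overlapped, through normal liver replicate 2 alone. The vehicle mean was 10.1 times that with MLN0128, a log2 difference of -3.24 ± 0.49 (SE). Without MLN0128 replicate 1 the difference was -3.13 and no longer called. Against everolimus it was -2.88, past the moderated test and not the call, although limma's voom on the recovered reads called both Mthfd2 and Psph lower there.

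Mthfd1l, which releases formate in mitochondria (ENSMUSG00000040675, chr10:3973118-4167081, plus strand), was at 1.46, 1.86 and 1.36 FPKM in normal livers and at 19.2, 33.1 and 18.4 FPKM with vehicle. The rise of 3.22 ± 0.22 (SE) was called. In the MLN0128 group it was at 17.9, 13.8 and 21.3 FPKM and with everolimus at 30.8, 22.7 and 29.5 FPKM. The MLN0128 range overlapped that of vehicle, and the difference of -0.37 had an interval of -0.85 to 0.12. Its MLN0128 mean was 0.750 of the vehicle mean, where that of Mthfd2 was 0.0989.

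Aldh1l2, the mitochondrial formyltetrahydrofolate dehydrogenase (ENSMUSG00000020256, chr10:83487450-83534140, minus strand), was at 0.0247, 0.0363 and 0.0128 FPKM in normal liver, which is 2, 3 and 1 recovered reads. It was at 4.14, 9.12 and 5.72 FPKM with vehicle. In reads per library size, as scaled in the deposited FPKM, the ratio of vehicle to normal liver was 254. Its exact 95% interval of 117 to 692 covers counting error only. The scaling factors were 0.585 to 0.596 in normal liver and 1.12 to 1.15 with vehicle. Plain read totals would therefore give a higher ratio. Aldh1l2 passed the filter on low values through the tumors alone. With MLN0128 it was at 0.713, 0.488 and 6.47 FPKM. Replicates 1 and 2, the libraries with Xist, were lower than every vehicle library, and replicate 3 lay within their range. The difference from vehicle was -1.40 with all 3, past the moderated test, -2.14 and called without replicate 3, and 0.08 without replicates 1 and 2. With everolimus it was at 5.16, 5.92 and 8.68 FPKM, within the vehicle range. It shares 1056 of its 7503 exon bases with D10Wsu102e on the other strand.

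Mthfd1, the cytosolic enzyme with 3 activities (ENSMUSG00000021048, chr12:76255298-76319803, plus strand), had group means between 58.7 and 81.0 FPKM. It was at 58.2, 60.0 and 57.8 FPKM in normal liver, at 69.2, 59.4 and 66.4 FPKM with vehicle, at 84.5, 91.5 and 65.7 FPKM with MLN0128 and at 94.4, 67.9 and 80.8 FPKM with everolimus. No comparison passed either test, and the intervals against vehicle were -0.03 to 0.62 with MLN0128 and -0.02 to 0.63 with everolimus.

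**Figure D2:**
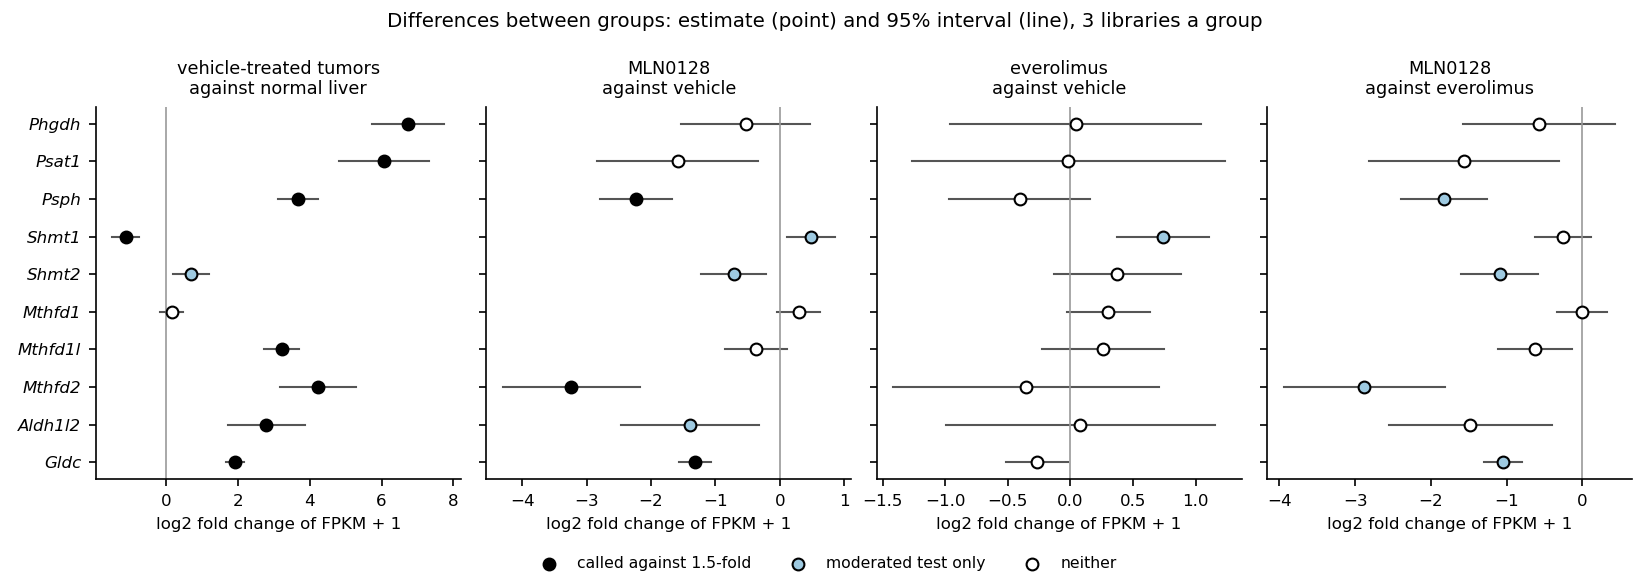
Log2 fold changes of FPKM + 1 for the 10 enzymes in 4 comparisons of 3 against 3 libraries, with points at the limma estimates and lines for 95% intervals. Black points were called against a fold change of 1.5, blue points passed only the moderated test and white points neither. Black points stand at 8 enzymes in tumors against normal liver and at 3 in MLN0128 against vehicle.

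Within a library, a ratio of FPKM does not depend on the scaling between libraries. The Shmt2 to Shmt1 ratio was 1.17 to 1.61 in the normal livers and 4.64 to 4.91 with vehicle. With MLN0128 it was 2.20, 1.25 and 3.08, and with everolimus 3.57, 2.89 and 4.68. The mitochondrial form thus exceeded the cytosolic form in every library, and the MLN0128 ratios lay below all vehicle ratios. Mthfd1l to Mthfd1 was 0.0235 to 0.0310 in normal liver and 0.277 to 0.557 with vehicle, and the MLN0128 range of 0.151 to 0.324 and the everolimus range of 0.326 to 0.365 each overlapped that of vehicle.

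Mthfd2 was set against Mthfd2l, its mitochondrial isozyme, which rose by 0.62 in tumors by the moderated test (limma adjusted p = 0.00056) and was at -0.13 with MLN0128 (limma adjusted p = 0.41). The ratio was 0.531 to 7.62 in normal liver. It was 24.8 to 35.8 with vehicle and 21.1 to 32.4 with everolimus, against 1.78 to 6.36 with MLN0128. The MLN0128 ratios all lay inside the range of the normal livers, but its upper end is replicate 2 alone. Normal liver replicates 1 and 3 were at 2.29 and 0.531, and the MLN0128 libraries at 2.86, 1.78 and 6.36. Aldh1l2 was set against Aldh1l1, its cytosolic counterpart, which fell by 3.58 in tumors (limma treat, adjusted p = 3.21e-05) and was at 232 to 255 FPKM in normal liver. The ratio was at most 0.000154 in normal liver and 0.176 to 0.894 with vehicle. With MLN0128 it was 0.0368 and 0.0244 in replicates 1 and 2 and 0.660 in replicate 3, and with everolimus 0.297 to 0.927.

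**Figure D3:**
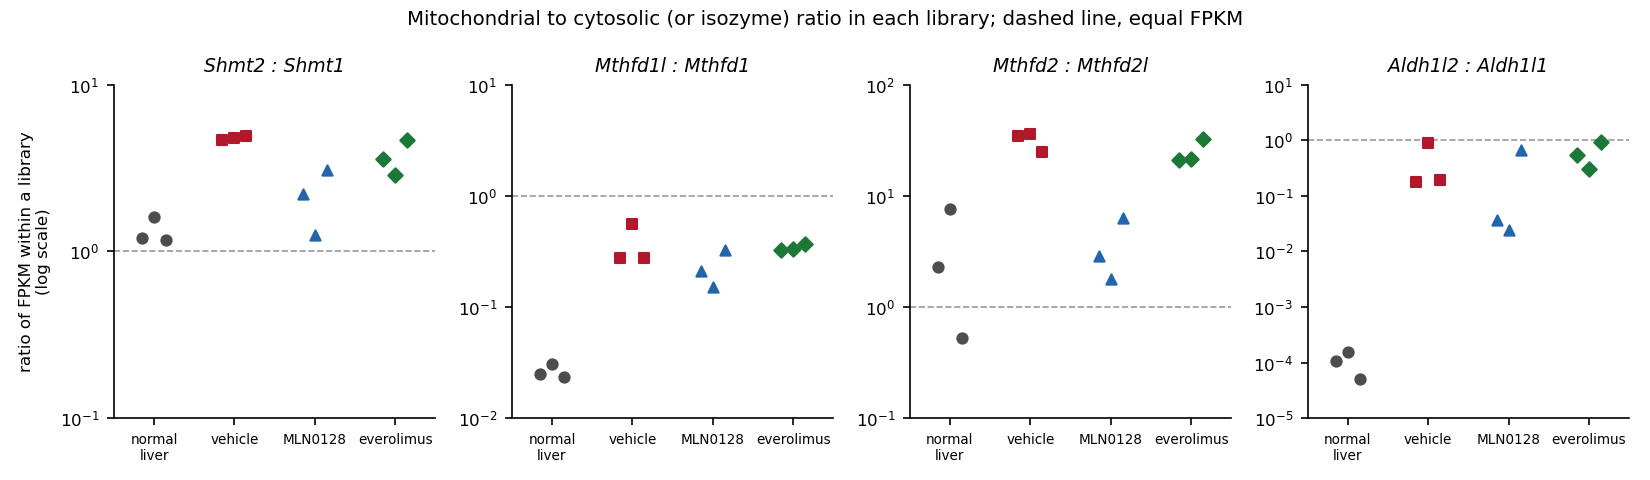
Ratio of the FPKM of 2 isozymes within each of the 12 libraries, on log axes, with a dashed line at equal FPKM. The Shmt2 to Shmt1 ratio lies between 4.64 and 4.91 with vehicle and between 1.25 and 3.08 with MLN0128. Mthfd2 to Mthfd2l with MLN0128 lies inside the range of normal liver, whose upper end is replicate 2 alone.

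The order of levels among the 10 enzymes differed by group. In normal liver it ran from Shmt2, Shmt1 and Mthfd1, with means of 78.6, 59.0 and 58.7 FPKM, through Gldc at 34.1 FPKM to 5 enzymes with means between 1.56 and 3.69 FPKM whose neighbors overlapped, and Aldh1l2 was last. With vehicle it ran from Phgdh and Psat1, with means of 231 and 204 FPKM and overlapping ranges, to Gldc and Shmt2 at 131 and 126 FPKM, which also overlapped. With MLN0128 Phgdh, at 159 FPKM, stood above the rest, and Mthfd1, Shmt2 and Psat1 followed with overlapping ranges at 80.6, 76.9 and 68.7 FPKM. With everolimus the first 4 were those of vehicle, Phgdh, Psat1, Shmt2 and Gldc, each overlapping the next. The summed level of the 10 was 219 to 278 FPKM in normal livers and 827 to 992 FPKM with vehicle. It was lower with MLN0128, at 490 to 526 FPKM, than in any other tumor, and 744 to 1073 FPKM with everolimus.

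Normal liver replicate 2 had the highest level of its group in all 10 enzymes, where it was highest in 36.9% of the tested genes. It stood furthest from the other normal livers in Phgdh, with 131 recovered reads against 8 and 8, and in Psat1, with 459 against 39 and 19. Of the 12 genes of the ATF4 program listed further on, 9 were also highest there, as were 13 of the 14 proliferation genes. In the other lists given below the counts were lower. They were 8 of 17 for serine and glycine use and 9 of 18 for the folate list. For the methionine cycle 4 of 12 were highest there, and for the transporters 4 of 10. Everolimus replicate 2 was the lowest of its group in 8 of the 10, where it was lowest in 44.6% of all genes. Vehicle replicate 2 was the highest of its group in 8, where it was highest in 37.7% of all genes. Why these libraries stood apart was not tested.

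Among all tested genes, those most like each of 4 enzymes over the 9 tumors were taken as the 3 with the highest Pearson's r on log2(FPKM + 1). These r span 3 groups and so include the differences between them, and they are given as descriptions. For Psat1 they were Mthfd2, Phf5a and Mapre1, with r of 0.993, 0.989 and 0.986, and for Mthfd2 they were Mapre1, Phf5a and Psat1, so that each of these enzymes was among the nearest genes of the other. For Psph they were Tpi1, Map2k1 and Tmem41b, with r from 0.994 to 0.997. Tpi1, the glycolytic triose-phosphate isomerase, was at 322 to 348 FPKM with vehicle and at 140 to 152 FPKM with MLN0128. For Phgdh they were Ptges3, Arxes2 and Mapk8, with r from 0.975 to 0.983. Ptges3, a cochaperone of HSP90, was at 117 to 151 FPKM with vehicle and 81.0 to 91.3 FPKM with MLN0128.

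Other genes of the pathway were taken from 6 lists written by hand for this description with earlier results in view. The counts and p-values of list genes, also of those named above, are therefore descriptions. Of all tested genes, 15.9% were called higher and 16.9% lower in tumors, 0.479% and 1.65% with MLN0128 and 0.0347% and 0.57% with everolimus. By the moderated test the shares were 14.9% and 17.1% with MLN0128 and 3.78% and 6.05% with everolimus. Genes that use serine and glycine numbered 17 tested, of which 2 were called higher and 6 lower in tumors, with a median log2 change of -0.82. Agxt, the glyoxylate aminotransferase that makes glycine, fell by 6.27, Glyat, which conjugates glycine, by 4.80 and Sds, which degrades serine to pyruvate, by 3.21 (limma treat, adjusted p = 6.54e-08, 2.02e-07 and 0.000716). Ptdss2, a phosphatidylserine synthase, rose by 1.33 and Sptlc2, a subunit of serine palmitoyltransferase, by 0.98 (limma treat, adjusted p = 0.000538 and 0.0275). The split was 6 higher and 4 lower with plain library totals and 7 and 3 with equal sums. With MLN0128, Cth, which makes cysteine in the pathway that takes up serine, fell by 2.12 and Sptlc2 by 1.41 (limma treat, adjusted p = 0.0124 and 0.00728), and no other gene of this list was called. With everolimus 0 of 17 were called, and 1 was lower by the moderated test.

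The folate cycle and folate transport list, with 18 tested genes, had 5 called higher and 6 lower in tumors. Slc19a1, the reduced folate carrier, rose by 2.57, and Atic and Gart, the purine synthesis enzymes that use formyl-tetrahydrofolate, by 2.28 and 2.18 (limma treat, adjusted p = 1.36e-06, 1.62e-06 and 1.46e-06). Aldh1l1 fell most, and Ftcd, which links histidine breakdown to folate, and Slc46a1, the proton-coupled folate transporter, fell by 1.96 and 1.95 (limma treat, adjusted p = 0.00193 and 1.02e-05). Under the other scalings the split was 9 and 3, or 9 and 1. With MLN0128, 0 of the 18 were called and 3 were higher and 2 lower by the moderated test, and with everolimus 0 were called by either test. Gart was at 32.1 to 39.7 FPKM with vehicle and at 43.1 to 58.5 FPKM with MLN0128, which did not overlap, and Atic at 19.9 to 23.8 and 24.4 to 30.4 FPKM.

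In the methionine cycle, 1 of 12 genes was called higher and 7 lower in tumors. Mat2a, the methionine adenosyltransferase of most tissues other than liver, rose by 1.66, and Bhmt, which remethylates homocysteine with betaine, Gnmt, which methylates glycine, and Gamt, of creatine synthesis, fell by 5.11, 3.5 and 2.99 (limma treat, adjusted p = 4.12e-05 for Mat2a and 0.00132, 1.11e-05 and 0.000231 for the others). With either drug 0 of the 12 were called, with 1 higher and 1 lower by the moderated test with MLN0128 and 0 with everolimus. Of the 10 serine and glycine transporters, 4 were called higher in tumors, among them Slc1a4 by 2.67 and Slc1a5 by 2.65, and 2 lower, Slc38a4 by -2.43 and Slc38a2 by -1.03 (limma treat, adjusted p = 2.74e-05, 0.000118, 5.35e-06 and 0.0326). Slc38a2 changed its direction when libraries were brought to equal sums. With MLN0128, Slc1a4, which carries serine, fell by 1.97, Slc6a9, which carries glycine, by 1.64 and Slc38a1 by 1.44 (limma treat, adjusted p = 0.0117, 0.0295 and 0.00064). With everolimus Slc38a1 and Sfxn3, a relative of the mitochondrial serine carrier, were called lower, by 1.44 and 1.84 (limma treat, adjusted p = 0.000991 and 0.00217).

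The ATF4 program, a list of Atf4 and 11 genes known to act or to be induced with it, none of them among the 10 enzymes, had 8 of 12 called higher and 1 lower in tumors, with a median of 2.0, and 0 higher and 8 lower with MLN0128, with a median of -2.17. Atf4 itself was at 49.3 to 68.4 FPKM in normal livers and at 130 to 168 FPKM with vehicle. MLN0128 libraries held it at 30 to 35.6 FPKM, the lowest of all groups, and everolimus libraries at 86.3 to 141 FPKM. It rose by 1.31 in tumors and fell by 2.13 with MLN0128 (limma treat, adjusted p = 0.00538 and 0.000829). In tumors Ddit4, an inhibitor of mTORC1, rose by 4.40, Nupr1, a stress-induced nuclear protein, by 4.27 and Atf3, a stress-induced transcription factor, by 3.69, and Cebpb fell by 1.43 (limma treat, adjusted p = 6.96e-06, 9.11e-05, 6.94e-05 and 0.00578). Chac1, a glutathione-degrading enzyme, Nupr1 and Trib3, a pseudokinase, fell by 4.23, 3.93 and 3.58 with MLN0128 (limma treat, adjusted p = 9.09e-06, 0.00489 and 0.00112). Chac1 was also the sole gene of the list called between the drugs, lower with MLN0128 than with everolimus by 3.55 (limma treat, adjusted p = 8.98e-05). With everolimus against vehicle 0 of 12 were called, and 2 were lower by the moderated test. Without the MLN0128 libraries that held Xist the count with MLN0128 was 2 of 12, and it was 5 to 8 with single libraries left out.

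Proliferation genes, 14 in number, were all called higher in tumors, with a median of 3.44, and 0 were called with either drug. Their medians were -0.38 with MLN0128 and 0.17 with everolimus. Rrm2, a subunit of ribonucleotide reductase, rose by 4.45 and Ccnb1, a mitotic cyclin, by 4.38 in tumors (limma treat, adjusted p = 7.93e-07 and 5.37e-06). With MLN0128 Rrm2 was at 39.8, 22.3 and 57.5 FPKM, against 55.0 to 59.9 FPKM with vehicle. The MLN0128 libraries differed among themselves. Replicate 1 lay below all vehicle libraries in 12 of the 14 genes and replicate 2 in 13, whereas replicate 3 lay above all of them in 11 and below them in 1. The share of all tested genes that lay so is not given here, so these counts describe the 14 genes only. Replicate 3 also had the highest Mthfd2 of the MLN0128 libraries. By the moderated test 1 of the 14 was lower with MLN0128. The part of this spread in the levels of the enzymes was not tested. The medians of all tested genes were 0.058 in tumors, -0.0087 with MLN0128 and 0.034 with everolimus.

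**Figure D4:**
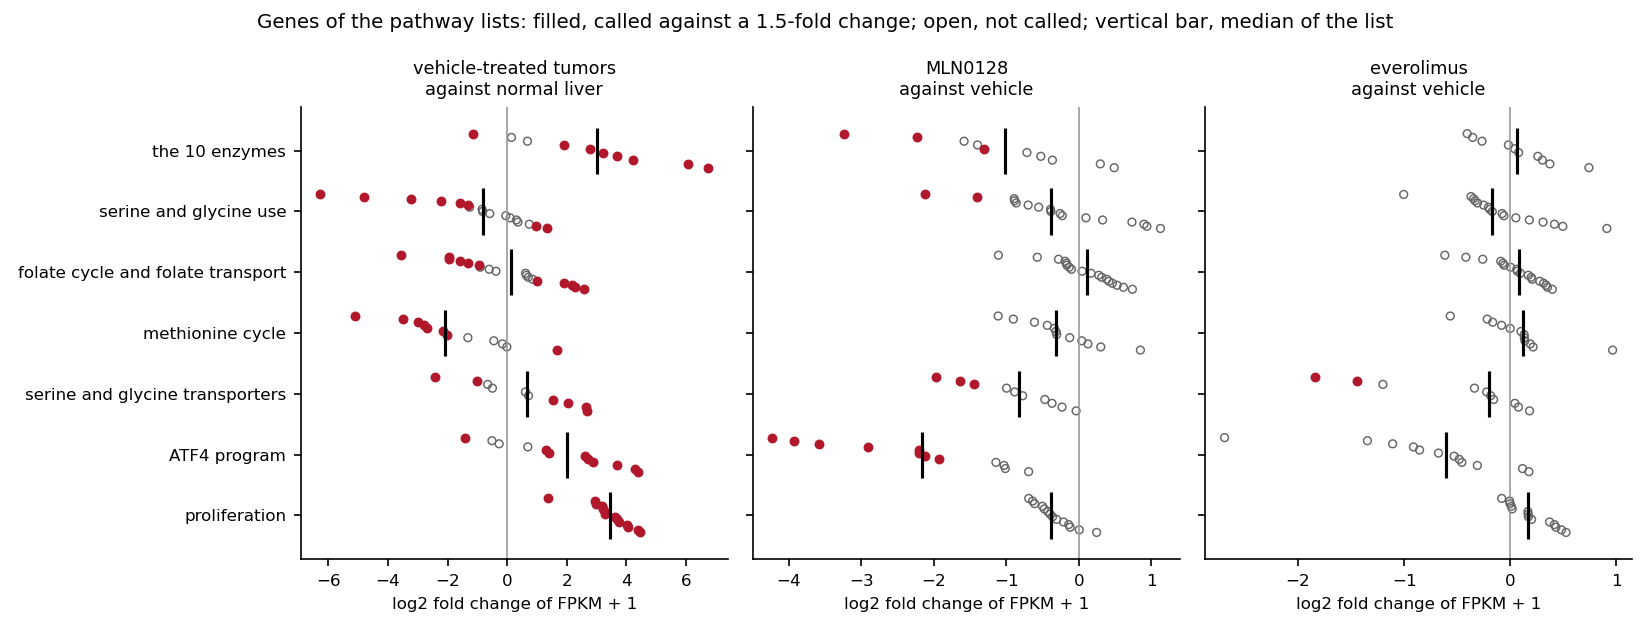
Log2 fold changes of FPKM + 1 of the 10 enzymes and of the genes in 6 lists, 1 point a gene, in 3 comparisons, with filled points called against a fold change of 1.5 and a vertical bar at the median of a list. In MLN0128 against vehicle the called points stand in the enzymes, the serine and glycine use list, the transporters and the ATF4 program, and in everolimus against vehicle only in the transporters.

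Markers of other liver cells moved with the groups as well. Their summed levels in normal liver, with vehicle, with MLN0128 and with everolimus follow. The 8 macrophage and Kupffer cell markers summed to 220 to 266, 60.4 to 96.1, 25 to 36.4 and 46.6 to 146 FPKM. Of these markers 1, Cd68, was called higher in tumors and 4 lower, beside 15.9% and 16.9% of all tested genes. The 8 endothelial markers summed to 70.5 to 84.2, 18.1 to 25.7, 14.82 to 20.01 and 15.1 to 26.7 FPKM. The 8 fibroblast and stellate cell markers summed to 67.3 to 95.7, 28.1 to 62.8, 33.7 to 68.6 and 51.8 to 61.6 FPKM. That sum holds opposite changes, with Col1a1 and Col1a2 called higher in tumors and Dcn, Lrat, Lum and Reln called lower. Mean Dcn was 50.6 FPKM in normal liver and 4.05 FPKM with vehicle, whereas mean Col1a1 was 0.839 and 13.9 FPKM. The 5 bile duct markers that were listed summed to 40.2 to 43.6, 36.8 to 92.5, 10.3 to 28.2 and 17.2 to 61.8 FPKM, and of the 4 tested 3 were called higher in tumors, 2 lower with MLN0128 and 1 lower with everolimus. The 5 red blood cell markers summed to 289 to 653, 35.2 to 88.5, 16.1 to 40.6 and 107 to 131 FPKM. The 7 lymphocyte markers summed to at most 3.44 FPKM in any library, and the 4 neutrophil markers to at most 17.3 FPKM. The part of these cells in the levels of the 10 enzymes was not tested.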

How the data were processed

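RNA of 12 mouse livers and liver tumors had been sequenced by Novogene, after polyA capture or rRNA removal per the labels, for the authors, who counted reads per Ensembl gene, named them with org.Mm.eg.db and called genes with edgeR's glmTreat. The deposited values are the authors' FPKM, linear and rounded to 3 significant digits, and carry a scaling between libraries beyond total reads (factors of 0.585 to 0.596 in normal liver and 1.10 to 1.37 in tumors). The submitters' processing notes name FastQC 0.11.7 and GRCm38. The aligner and gene lengths are not given in the sources used here. Because FPKM are not counts, the main fits used log2 FPKM. Reads recovered from the FPKM were used in an alternative fit with limma's voom, and the authors' test was not repeated.

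A pseudocount of 1 FPKM was added before taking log2, and a gene needed 0.5 FPKM in 3 or more libraries. R 4.3.3 and limma 3.58.1 fitted the 12 libraries together, with an intensity trend. Calls came from limma's treat test of fold changes beyond 1.5, with p-values adjusted over 14397 genes after Benjamini and Hochberg and a threshold of 0.05, and the moderated test was run beside it. Named genes were the 10 enzymes, up to 3 highest and 3 lowest called genes of each list, 5 fixed partner genes, and the 3 nearest genes of Phgdh, Psat1, Psph and Mthfd2. The enzymes and lists were chosen with earlier results of these data known. The labels number the samples of a group without naming animals, so p-values measure the spread between these samples, which may be technical.

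Positions and exon lengths came from GENCODE M21, where 16864 of the 17007 symbols were found, and 22 symbols had become dates. FPKM times exon length fell within 0.1 of a whole read for 98.2% to 98.9% of values under 20 reads, and 3 reads on 2 kb correspond to 0.0496 to 0.144 FPKM. Alternatives covered the pseudocount, filter, scaling, libraries fitted, prior trend, voom on recovered reads, a block for the replicate number, and fits without single libraries. The procedure was first tested on simulated data. Promoter windows came from RefSeq. Tables were handled with pandas 2.3.3 in Python 3.11.15 and drawn with matplotlib 3.10.9.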

Additional observations from a re-analysis of the deposited data

How the results depend on the processing

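Over 25 fits or rules, 950 values of single enzymes were recomputed, of which 903 kept their direction and their side of the call, 27 became called, 6 lost the call and 14 changed direction. Many of these values repeat the main estimate. A change of filter, trend, block, test or libraries of a group not compared leaves a fold change as it was. Direction could not change there, so the 903 do not measure how stable the differences were. In tumors against normal liver, the count called lower was 0 with plain library totals and 0 with equal FPKM sums. Without single libraries it was 0 to 1, with 0 without vehicle replicate 3, where Shmt1 missed the call. In MLN0128 against vehicle, the count called lower was 0 without both MLN0128 libraries that held Xist, 2 to 4 without single libraries (2 without MLN0128 replicate 1, when Mthfd2 was lost, and 4 without MLN0128 replicate 3, when Aldh1l2 was added, or without normal liver replicate 2, when Psat1 was), and 5 by the moderated test, alone or with a fold change above 1.5. The count called higher there was 1 by the moderated test. In everolimus against vehicle, 1 was higher by the moderated test, alone or with a fold change above 1.5. In MLN0128 against everolimus, 2 were called lower by voom, 4 by the moderated test, alone or with the fold change, and 0 to 1 without single libraries, with 1 (Aldh1l2) without MLN0128 replicate 3. The causes were not tested.

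The direction changed for small differences. Mthfd1 between the drugs was at 0.13 with plain totals, 0.24 with equal sums and from -0.129 to 0.129 with single libraries left out. Shmt1 in tumors was at 0.028 with equal sums. With single libraries left out, the difference between everolimus and vehicle ranged from -0.092 to 0.264 for Phgdh, -0.170 to 0.161 for Psat1 and -0.148 to 0.341 for Aldh1l2. Aldh1l2 was at 0.085 against vehicle and 0.0049 against everolimus without both MLN0128 libraries that held Xist.

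With the replicate number as a replicate block the counts were 7 higher and 1 lower in tumors, 3 lower with MLN0128 and 0 in the other comparisons, and no call changed. Deviations of same-numbered libraries from their group means correlated from -0.289 to 0.148 over 18 pairs, and those of other pairs from -0.287 to 0.396 over 36, so the numbers were not taken to pair the samples.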
